A study of Arabidopsis thaliana with 27 samples.

Results

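Leaves of *Arabidopsis thaliana* plants carrying *35S::AtTOR* were compared with WT leaves at the end of a drought, over all genes that reached a mean of at least 10 normalized counts in either group. That rule kept 17330 of the 34218 genes in the table. The *35S::AtTOR* plants carry the full-length *AtTOR* coding sequence under the CaMV 35S promoter, which drives a transgene in most plant cells, in the Col-0 background. WT was untransformed Col-0. Both genotypes had been watered until 27 days after germination and then went without water for 11 days, until day 38. Each group had 3 leaf samples, all 6 from the batch labelled 1. The homozygous lines of the construct were combined under 1 name. The labels do not say which line gave a sample, nor whether the replicates were separate plants or pools. The p-values therefore measure only a spread between samples, which the main test took from all 27 samples of the series. The series as a whole holds 27 leaf samples, 3 for each combination of WT, *GC::AtTOR* (the same coding sequence under a guard cell promoter) and *35S::AtTOR* with well-watered, drought and re-watered treatments. It was collected to ask which transcripts differ between *AtTOR* plants and WT as water is withdrawn and returned.

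TOR (target of rapamycin) is a protein kinase that couples growth, ribosome production and translation to the supply of nutrients and energy. Drought raises the hormone abscisic acid (ABA), which binds receptors of the PYR/PYL family. The bound receptors inhibit clade A PP2C phosphatases, SnRK2 kinases such as OST1 are then released, and these activate bZIP factors that turn on dehydration genes and close stomata. In unstressed *Arabidopsis* TOR phosphorylates PYL receptors and keeps this pathway low.

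A normalized count is a gene's read count divided by 1 size factor per sample, with no correction for gene length. The drought libraries held 12633331, 13035624 and 14888716 reads in *35S::AtTOR* and 12835354, 13290788 and 11516845 in WT. The samples of a genotype were alike for most genes, with a median SD on the log2 scale of 0.168 in *35S::AtTOR* and 0.166 in WT. A wider spread, with an SD above 1, was found for 351 genes in *35S::AtTOR* and 836 in WT. WT replicate 3 stood apart. On the first principal component of the 6 samples, which held 50.1% of the variance, the *35S::AtTOR* samples lay at 30.4, 52.1 and 8.4, and the WT samples at -5.3, -11.4 and -74.2. Leaf markers were high in all 6, the summed level of 20 light-harvesting genes being 455900, 559043 and 433009 in *35S::AtTOR* and 317200, 406039 and 385765 in WT, while 8 floral organ genes summed to no more than 23.4 in any of the 6. Because these are bulk leaf samples, fewer cells of a type and less RNA per cell cannot be told apart.

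Of the 17330 genes, *35S::AtTOR* leaves had 215 with a higher level than WT (1.24%) and 54 with a lower one (0.312%), 1.55% in all. A gene was called a DEG (differentially expressed gene) at a Benjamini-Hochberg adjusted p under 0.05 from limma with a log2 fold change past 1 in either direction. Higher genes thus made up 79.9% of the 269 DEGs. The median gene did not move (log2 fold change -0.004, quartiles -0.16 and 0.17). Among the DEGs the median log2 fold change was 1.61 for the higher genes and -1.72 for the lower ones, and 261 of the 269 code for proteins. In 268 of them the 3 *35S::AtTOR* values lay outside the range of the 3 WT values, against 13.4% of all 17330 genes with *35S::AtTOR* higher and 12.1% with it lower. The DEGs were chosen on these same values, so the 268 is largely set by that choice and is no separate support for the calls. The number of DEGs leaned on 2 things. It used the spread shared by all 27 samples. In a limma fit of these 6 samples alone 1 gene was higher and 1 lower at an adjusted p under 0.05 (3018 at an unadjusted p under 0.05). That fit compares the same group means, so the direction of a gene could not change in it. The number of DEGs also leaned on single libraries, with 90 higher and 22 lower without WT replicate 3. It was 69 and 7 without *35S::AtTOR* replicate 1, 51 and 9 without replicate 2, and 295 and 125 without replicate 3.

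**Figure D1:**
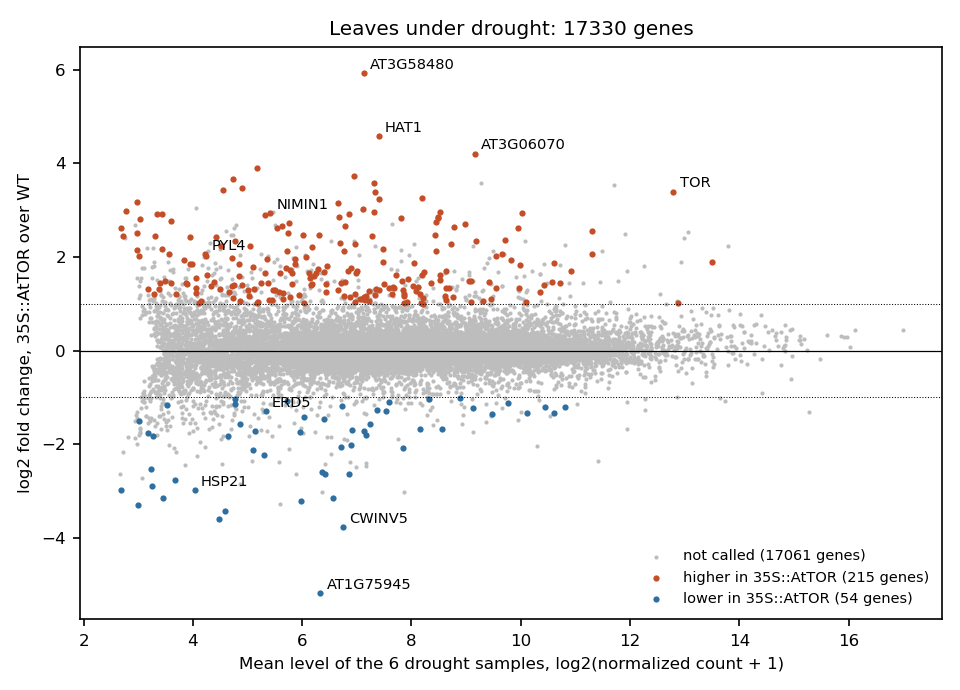
Each point is 1 of the 17330 genes, with its mean level over the 6 drought samples as log2(normalized count + 1) on the x axis and the log2 fold change of *35S::AtTOR* over WT on the y axis. The 215 higher and 54 lower DEGs are coloured, the dotted lines mark log2 fold changes of 1 and -1, and *TOR* stands at 3.40 among the highly expressed genes.

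*TOR* (AT1G50030, chromosome 1, 18522248 to 18539995 in TAIR10.1), the gene carried by the construct, had 13546, 11435 and 13951 normalized counts in *35S::AtTOR* and 1362, 1174 and 1145 in WT. The groups lay far apart, with a log2 fold change of 3.40 (SE 0.165, adjusted p = 1.69e-11 from limma). Reads of the transgene and of the resident gene cannot be told apart in a gene count. The excess was of the same size in well-watered leaves (log2 fold change 3.33) and in re-watered leaves (3.33). Among the 12 measured genes of the TOR complex and its substrates *TOR* was the 1 DEG. *RAPTOR1*, the subunit that presents substrates, had 1443, 1362 and 1402 normalized counts in *35S::AtTOR* and 1439, 1304 and 1115 in WT (log2 fold change 0.13, adjusted p = 0.538 from limma). *LST8-1*, a further subunit, had 795, 787 and 835 in *35S::AtTOR* and 822, 776 and 802 in WT. Of the S6 kinase genes, whose products TOR phosphorylates, *S6K1* stood at -0.15 and *S6K2* at 0.24 in log2 fold change, neither past the test.

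A few genes differed from WT by the same call in all 3 treatments, namely *TOR*, AT3G58480 and AT1G66880 on the higher side and AT1G75945 on the lower side. AT3G58480, annotated as a calmodulin-binding family protein, had the highest log2 fold change of the 17330 genes. It had 294, 338 and 190 normalized counts in *35S::AtTOR*, against 1.87, 2.67 and 6.89 in WT (log2 fold change 5.93, SE 0.51, adjusted p = 6.99e-07 from limma). In well-watered leaves it averaged 162.6 in *35S::AtTOR* and 4.54 in WT, and after re-watering the log2 fold change was 8.26. Its neighbours on chromosome 3 showed no such gap, since AT3G58470 had 189, 198 and 195 in *35S::AtTOR* and 219, 213 and 235 in WT, and the next gene, *SPP1* (AT3G58490), had 229, 228 and 199 against 280, 240 and 201 in WT.

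AT1G75945, annotated as an uncharacterized protein, was the mirror case, with 7.65, 3.90 and 0.818 normalized counts in *35S::AtTOR* and 147, 176 and 141 in WT (log2 fold change -5.19, SE 0.823, adjusted p = 0.00184 from limma). *GC::AtTOR* leaves under drought were as low, with 3.52, 5.72 and 0.975, so that *35S::AtTOR* and *GC::AtTOR* differed by a log2 fold change of 0.12 (adjusted p = 0.947 from limma). The adjoining gene *SKP1*, a subunit of SCF ubiquitin ligases, had 1735, 2110 and 1981 in *35S::AtTOR* and 1769, 2058 and 1942 in WT. AT1G66880, annotated as a protein kinase, had 608, 1167 and 595 in *35S::AtTOR* and 299, 354 and 178 in WT (log2 fold change 1.49, adjusted p = 0.0158 from limma).

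The 15 genes with the highest log2 fold changes among well-expressed DEGs (averaging 100 or more where higher, with no overlap of samples) ran between 2.92 and 5.93, and several encode transcription factors. *HAT1*, an HD-ZIP factor, had 576, 284 and 111 normalized counts in *35S::AtTOR* and 4.68, 20.5 and 9.84 in WT (log2 fold change 4.59, SE 0.627, adjusted p = 0.000504 from limma). The 3 *35S::AtTOR* values differed among themselves by a factor of several, yet the lowest was above every WT value. AT3G06070, annotated as an uncharacterized protein, had 1238, 1442 and 539 in *35S::AtTOR* and 56.2, 121 and 20.7 in WT (log2 fold change 4.21, SE 0.607, adjusted p = 0.000778 from limma). *OFP16*, of the ovate family of growth repressors, had 270, 184 and 80.2 in *35S::AtTOR* and 11.2, 39.2 and 10.8 in WT (log2 fold change 3.15, SE 0.507, adjusted p = 0.00195 from limma).

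AT1G15670, annotated as a kelch repeat protein, had 239, 224 and 136 normalized counts in *35S::AtTOR*, against 10.3, 38.3 and 37.4 in WT (log2 fold change 2.92, SE 0.412, adjusted p = 0.000686 from limma). *TOR*, AT3G58480, *HAT1*, AT3G06070, *OFP16*, AT1G15670 and *DIN10* stayed DEGs when any 1 of the 6 samples was left out. The other 8 of the 15 did not, and in these WT replicate 3 was the lowest sample. Each such fit still took its spread from the rest of the series. With the 6 samples alone, *TOR* was the only named gene to stay a DEG (AT3G58480 had an adjusted p of 0.0651 and *HAT1* 0.192 from limma). With the 9 drought samples alone, *TOR* and AT3G58480 stayed. *RAV1*, an AP2/B3 factor, had 440, 811 and 295 in *35S::AtTOR* and 51.5, 134 and 15.8 in WT (log2 fold change 3.27, SE 0.88, adjusted p = 0.0457 from limma). *ZF1*, a zinc finger gene, had 302, 390 and 166 in *35S::AtTOR* and 30.0, 60.6 and 4.92 in WT (3.59). AT3G04210, annotated as a TIR-NBS disease resistance protein, had 1494, 2695 and 1086 in *35S::AtTOR* and 376, 509 and 49.2 in WT (2.94). *HIR2*, of a family named for the hypersensitive reaction, had 243, 1193 and 494 in *35S::AtTOR* and 126, 136 and 16.7 in WT (2.95). Without WT replicate 3, 7 of the 15 remained DEGs and the log2 fold changes ran between 1.90 and 6.36. Without *35S::AtTOR* replicate 1 or 2, 9 and 7 remained, and 11 without WT replicate 1, where *RAV1* was among those lost.

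**Figure D2:**
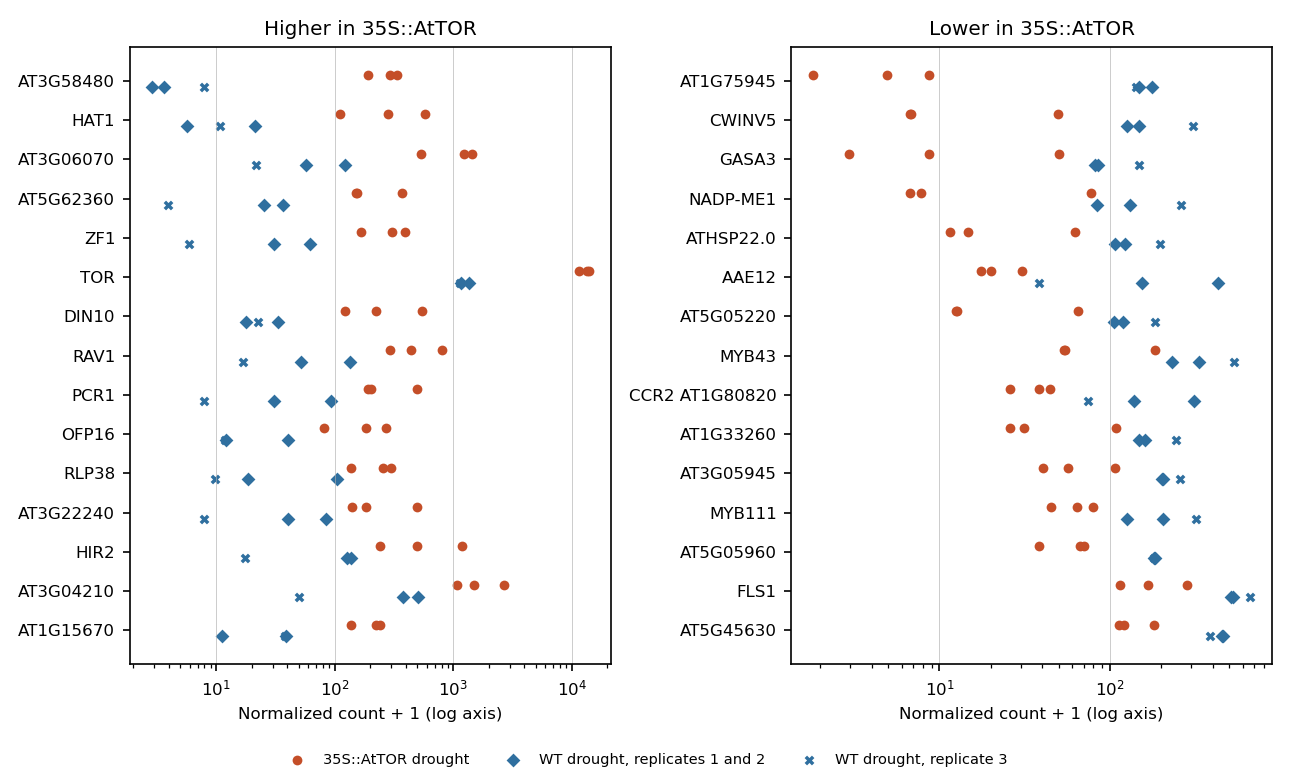
Normalized counts plus 1, on a log axis, of the 15 highest (left) and 15 lowest (right) well-expressed DEGs in each drought sample, with *35S::AtTOR* samples drawn above the WT samples of the same gene. These genes were picked so that the groups do not overlap in any row. *HAT1* has 111 or more in *35S::AtTOR* and no more than 20.5 in WT, and the cross of WT replicate 3 often lies farthest from the *35S::AtTOR* points.

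The 15 lowest well-expressed DEGs included genes of sucrose cleavage, flavonols and heat protection. *CWINV5*, a cell wall invertase, had 5.74, 5.86 and 48.3 normalized counts in *35S::AtTOR* and 125, 147 and 307 in WT (log2 fold change -3.77, SE 0.743, adjusted p = 0.00786 from limma). *NADP-ME1*, a malic enzyme, had 5.74, 6.83 and 76.1 in *35S::AtTOR* and 82.4, 130 and 260 in WT (-3.15). *GASA3*, of the gibberellin-regulated GASA peptides, had 7.65, 1.95 and 49.1 in *35S::AtTOR* and 80.5, 84.6 and 148 in WT (-3.22). In all 3 genes the third *35S::AtTOR* replicate was the highest of its group and WT replicate 3 the highest of the 6.

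*FLS1*, the flavonol synthase, had 166, 113 and 283 normalized counts in *35S::AtTOR* and 526, 513 and 662 in WT (log2 fold change -1.68, SE 0.288, adjusted p = 0.00353 from limma). *MYB111*, which activates flavonol genes, had 63.1, 43.9 and 78.6 in *35S::AtTOR* and 125, 204 and 320 in WT (-1.73, adjusted p = 0.0226 from limma). The rest of the branch was mixed, since *FLS1* was the 1 DEG of 12 measured flavonoid and anthocyanin genes. *TT4*, the chalcone synthase at the entry of the pathway, had 1658, 3212 and 4264 in *35S::AtTOR* and 7443, 5671 and 7576 in WT (-1.27, adjusted p = 0.074 from limma). AT3G05945, a non-coding RNA, had 106, 55.6 and 39.3 in *35S::AtTOR* and 200, 203 and 255 in WT (-1.81, adjusted p = 0.000212 from limma). AT1G75945, *FLS1* and AT3G05945 were the 3 of these 15 that remained DEGs with any 1 sample left out. None of the 3 was a DEG with the 6 samples alone (adjusted p = 0.192 for each from limma). Without WT replicate 3, 7 of the 15 were still called, and without *35S::AtTOR* replicate 1 or 2, 3 and 4. Without WT replicate 1 or 2, 12 and 10 were called, *MYB111* and *NADP-ME1* being lost without replicate 2. edgeR on recovered reads gave *CWINV5* an adjusted p of 0.0537 and *GASA3* 0.129 (over the alternatives tried 0.000887 to 0.245 and 0.00026 to 0.417). *NADP-ME1* had 0.201 with edgeR and 0.49 with DESeq2 (0.00175 to 0.49), and *ATHSP22.0* 0.0597 and 0.156 (0.000334 to 0.205).

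Within the ABA pathway the calls fell on receptors. Of 7 measured receptors 3 were higher in *35S::AtTOR* and 0 lower, with a list median of 0.59 (all genes: -0.004, 1.24% higher). *PYL4* had 31.5, 34.2 and 21.3 normalized counts in *35S::AtTOR* and 5.62, 8.01 and 4.92 in WT (log2 fold change 2.06, SE 0.226, adjusted p = 2.71e-05 from limma). *PYL5* had 33.5, 41.0 and 14.7 in *35S::AtTOR* and 6.55, 8.01 and 3.94 in WT (2.03, adjusted p = 0.0412 from limma). *PYL8* had 394, 305 and 242 in *35S::AtTOR* and 126, 176 and 156 in WT (1.02, SE 0.175, adjusted p = 0.00353 from limma). Every *35S::AtTOR* value of these 3 was above every WT value, though *PYL4* and *PYL5* rest on low counts. *PYL7* stood at -0.46 and did not pass the test. *PYL4* remained a DEG with any 1 sample left out, though not with the 6 samples alone (adjusted p = 0.192 from limma). *PYL5* lost its call without any of *35S::AtTOR* replicates 1 and 2 and WT replicates 1, 2 and 3 (log2 fold changes 1.74 to 2.21), and *PYL8* slipped under a log2 fold change of 1 without *35S::AtTOR* replicate 1 (0.84) or WT replicate 1 (0.89).

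The steps after the receptor did not pass the test. Of 7 clade A PP2C genes 0 were DEGs, and all 7 had log2 fold changes below 0 (median -0.62). *HAI1*, among the PP2C genes that drought induces, had 984, 738 and 2458 normalized counts in *35S::AtTOR* and 2056, 2573 and 3703 in WT (-1.15, adjusted p = 0.322 from limma). *OST1*, the SnRK2 kinase of guard cells, had 340, 245 and 392 in *35S::AtTOR* and 387, 398 and 502 in WT (-0.41, adjusted p = 0.156 from limma). None of the 8 SnRK2 and bZIP genes was a DEG with limma, edgeR or DESeq2, with 2 of the 8 (*OST1* and *ABF2*) at an unadjusted p under 0.05. *CYP707A1*, an ABA hydroxylase, had 139, 179 and 176 in *35S::AtTOR* and 365, 294 and 322 in WT, and its log2 fold change of -0.99 fell just short of the fold threshold (adjusted p = 0.0404 from limma).

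Dehydration genes had high counts in both genotypes. Of 21 measured ABA- and dehydration-induced genes 0 were DEGs with limma, 0 with edgeR and 1 with DESeq2, with 9 at an unadjusted p under 0.05 and a list median of 0.01. *RD29A*, a classic dehydration marker, had 40195, 38746 and 48359 normalized counts in *35S::AtTOR* and 42064, 44660 and 58070 in WT (log2 fold change -0.18). *RAB18*, a dehydrin, had 12943, 15174 and 44870 in *35S::AtTOR* and 31938, 50115 and 83163 in WT (-1.31, adjusted p = 0.152 from limma). *DI21*, a drought-induced protein gene, came nearest to a call within the list, with 1013, 1350 and 3661 in *35S::AtTOR* and 3505, 5688 and 8397 in WT (-1.69, adjusted p = 0.0508 from limma). In *RAB18* and *DI21* the third *35S::AtTOR* replicate overlapped the lower WT samples. *KIN2* and *COR15B*, cold- and dehydration-induced, lay the other way, at 0.83 and 0.75, without passing the test. AT2G42560, annotated as a late embryogenesis abundant domain protein, is not in this list and was among the lower DEGs.

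Proline and raffinose genes split. *DIN10*, of the raffinose synthase family and named for its induction in the dark, had 548, 222 and 123 normalized counts in *35S::AtTOR* and 16.9, 32.0 and 21.6 in WT (log2 fold change 3.38, SE 0.541, adjusted p = 0.00188 from limma). *ERD5*, the proline dehydrogenase that starts proline breakdown, had 20.1, 20.5 and 26.2 in *35S::AtTOR* and 65.5, 47.2 and 55.1 in WT (-1.29, SE 0.254, adjusted p = 0.00773 from limma). It lost the call without *35S::AtTOR* replicate 1 (-1.22) or 2 (-1.24). *P5CR*, the last enzyme of proline synthesis, had 907, 891 and 1149 in *35S::AtTOR* and 1284, 1394 and 1615 in WT, a log2 fold change of -0.54 that passed the adjusted p (0.0223 from limma) and not the fold threshold. *P5CS1*, the first enzyme, stood at -0.90 (adjusted p = 0.181 from limma). Of the 12 genes 1 was called higher and 1 lower, with a median of -0.43. Among 10 low-energy and SnRK1 genes *DIN10* was likewise the 1 DEG (median 0.80). *TPS11*, a trehalose-phosphate synthase family gene, had 2552, 1813 and 1901 in *35S::AtTOR* and 1021, 1094 and 1133 in WT (0.93, adjusted p = 0.0575 from limma), and the kinase genes *KIN10* and *KIN11* stood at -0.08 and 0.03. *AKINBETA1* (AT5G21170), annotated as a 5'-AMP-activated protein kinase beta-2 subunit, is not in this list and was among the higher DEGs.

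Of the 8 measured genes of the heat shock list 0 were higher and 2 lower (median -0.37, all genes 0.312% lower). *HSP21*, a chloroplast small heat shock protein, had 0.956, 1.95 and 3.27 normalized counts in *35S::AtTOR* and 8.43, 21.4 and 56.1 in WT (log2 fold change -2.98, SE 0.655, adjusted p = 0.0163 from limma). It averaged under 10 in *35S::AtTOR* and so counted as measured only through WT, where it was high. *HSP70* (AT3G12580), a cytosolic chaperone, had 444, 524 and 963 in *35S::AtTOR* and 1277, 1407 and 2037 in WT (-1.34, SE 0.358, adjusted p = 0.0434 from limma). Outside the list, *ATHSP22.0*, a small heat shock protein among the 15 lowest genes, had 10.5, 13.7 and 61.4 in *35S::AtTOR* and 107, 121 and 196 in WT (-2.65, adjusted p = 0.00711 from limma). AT4G21870, annotated as an HSP20-like chaperone, lay the other way, with 96.6, 110.3 and 46.6 in *35S::AtTOR* and 15.9, 16.0 and 5.91 in WT (2.67, adjusted p = 0.00122 from limma). By product name (words chosen after the DEGs were seen), HSP20-like or heat shock proteins made up 1 of the 215 higher DEGs (0.465%), 4 of the 54 lower ones (7.41%) and 0.606% of all genes, and 0 of the 22 lower DEGs without WT replicate 3. *HSFA2*, a heat shock factor, was not a DEG, with 6.69, 22.4 and 14.7 in *35S::AtTOR* and 10.3, 13.4 and 14.8 in WT. The calls of *HSP21*, *HSP70* and *ATHSP22.0* each ended without *35S::AtTOR* replicate 1, without replicate 2 or without WT replicate 3, where the log2 fold changes were -2.69, -2.99 and -2.32 for *HSP21*, -1.12, -1.23 and -1.14 for *HSP70* and -2.18, -2.36 and -2.39 for *ATHSP22.0*. *HSP70* also lost its call without WT replicate 1 (-1.48) or 2 (-1.41), and edgeR called 0 genes of the list (adjusted p = 0.137 for *HSP21* and 0.0637 for *HSP70*, over the alternatives tried 0.0108 to 0.36 and 0.0148 to 0.35).

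Among salicylic acid defence genes the calls fell on regulators. Of 15 measured genes 3 were higher and 0 lower (median 0.61, all genes -0.004 with 1.24% higher). *EDS1*, a hub of immunity from intracellular receptors, had 324, 532 and 285 normalized counts in *35S::AtTOR* and 189, 184 and 98.4 in WT (log2 fold change 1.27, SE 0.332, adjusted p = 0.0392 from limma). *PAD4*, its partner protein, had 273, 431 and 236 in *35S::AtTOR* and 102, 161 and 56.1 in WT (1.63, SE 0.355, adjusted p = 0.0154 from limma). *NIMIN1*, which binds the salicylic acid receptor NPR1, had 56.4, 120 and 39.3 in *35S::AtTOR* and 6.55, 26.7 and 1.97 in WT (2.94, SE 0.679, adjusted p = 0.0199 from limma). *NPR1* itself had 662, 748 and 539 in *35S::AtTOR* and 475, 470 and 333 in WT, at 0.61 (adjusted p = 0.0454 from limma) below the fold threshold. *WRKY70*, a factor downstream of salicylic acid, had 7406, 8999 and 4674 in *35S::AtTOR* and 3692, 4002 and 490 in WT (1.81, adjusted p = 0.218 from limma). The pathogenesis-related gene *PR2* had 49.7, 174 and 115 in *35S::AtTOR* and 185, 139 and 140 in WT (-0.61), and *ICS1*, of salicylic acid synthesis, stood at 0.14. Without WT replicate 3, which was the lowest sample for *EDS1*, *PAD4*, *NIMIN1* and *WRKY70*, 0 genes of the list were DEGs and the median was 0.45, with *EDS1* at 0.97, *PAD4* at 1.23 and *NIMIN1* at 2.18. The 3 calls also ended without *35S::AtTOR* replicate 1 (1.36, 1.70 and 3.03) or 2 (1.00, 1.37 and 2.49), and that of *NIMIN1* without WT replicate 1 (2.85).

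Of 26 measured jasmonate genes 0 were DEGs with limma, edgeR or DESeq2, and none reached an unadjusted p under 0.05 with limma. *JAZ10*, a repressor induced by jasmonate, had 61.2, 178 and 92.5 normalized counts in *35S::AtTOR* and 812, 293 and 2.95 in WT. *VSP2*, a vegetative storage protein, had 3129, 6941 and 3339 in *35S::AtTOR* and 11547, 4146 and 497 in WT. WT replicate 1 was the highest and replicate 3 the lowest of the 6 for both. The list median had no stable sign, being 0.07 with limma, -0.43 with edgeR, -0.42 with DESeq2 and -0.91 without WT replicate 3.

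**Figure D3:**
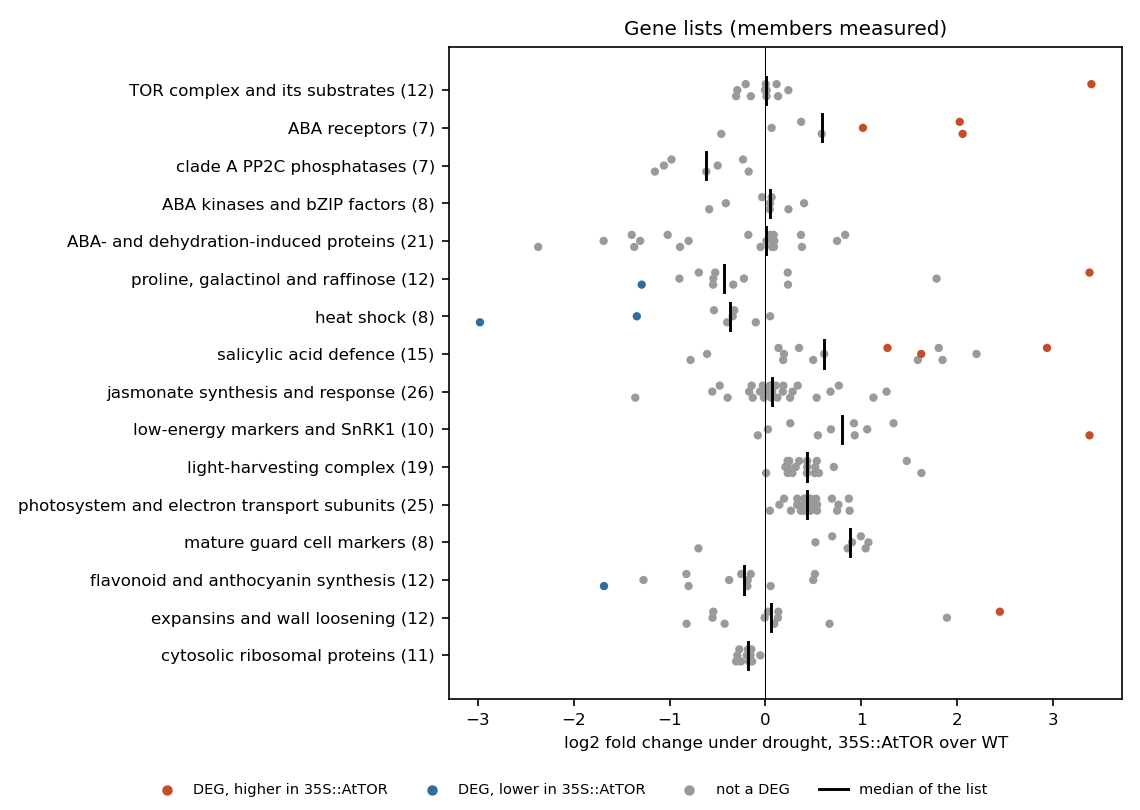
Each point is a member of the gene list named on the left (number of measured members in brackets), placed by its log2 fold change of *35S::AtTOR* over WT under drought, with black bars at the list medians. The 3 ABA receptors and 3 salicylic acid genes called higher lie to the right, the 2 heat shock genes called lower to the left, and the light-harvesting and photosystem lists lie above 0 with no call and medians of 0.43.

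No nuclear photosynthesis gene of these lists was called, although most had values above WT. *FED A* (AT1G60950), annotated as a 2Fe-2S ferredoxin-like protein, is in none of them and was a higher DEG, just past the fold threshold. All 25 photosystem and electron transport genes had log2 fold changes above 0 (median 0.43, 0 DEGs with limma, edgeR or DESeq2, 16 at an unadjusted p under 0.05), and in 23 of them the groups did not overlap (13.4% of all genes did not, with *35S::AtTOR* higher, and 3038 of 17330 had an unadjusted p under 0.05). *PSAF*, a photosystem I subunit, had 27278, 30029 and 23926 normalized counts in *35S::AtTOR* and 15518, 19352 and 13379 in WT (log2 fold change 0.76, adjusted p = 0.0601 from limma). *PSBQ2*, of the oxygen-evolving complex, had 19635, 21667 and 14491 in *35S::AtTOR* and 10362, 11889 and 8185 in WT (0.87, adjusted p = 0.115 from limma). Of 19 light-harvesting genes 0 were DEGs (median 0.43), and the 19 Calvin cycle genes had 0 DEGs and a median of 0.29. With DESeq2, 4 photosystem genes passed the adjusted p at any fold, and 0 with limma or edgeR. Scaling to equal sample totals lowered the photosystem and light-harvesting medians to 0.36 each.

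Guard cell markers had the highest median of the lists, and 0 of them were DEGs with limma, edgeR or DESeq2 (7 at an unadjusted p under 0.05). Of 8 mature guard cell markers 7 had log2 fold changes above 0 (median 0.88), and in all 8 the groups did not overlap (all genes: 13.4% with *35S::AtTOR* higher, 12.1% with it lower, 3038 of 17330 at an unadjusted p under 0.05). *FAMA*, the last of the factors that make guard cells, had 144, 110 and 125 normalized counts in *35S::AtTOR* and 80.5, 85.5 and 66.9 in WT (0.70, adjusted p = 0.0258 from limma), short of the fold threshold. *MYB60*, a guard cell factor of stomatal opening, had 38.2, 24.4 and 20.5 in *35S::AtTOR* and 15.9, 14.2 and 7.87 in WT (1.08, adjusted p = 0.0519 from limma). *GORK*, the outward potassium channel of stomatal closure, was the exception, with 474, 501 and 506 in *35S::AtTOR* and 666, 774 and 998 in WT (-0.70, adjusted p = 0.0849 from limma). *GORK* gave most of the counts of this list, and the summed level of the 8 was 868, 865 and 809 in *35S::AtTOR* and 875, 981 and 1166 in WT. *EPFL9*, a positive regulator of stomatal development, had 90.8, 94.7 and 76.1 in *35S::AtTOR* and 101, 114 and 106 in WT (-0.30).

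The other lists held few calls. Over all 43 lists 445 genes were measured, of which 9 were higher (2.02%) and 4 lower (0.899%), in 8 lists. *EXPA8*, an expansin of wall loosening, was the 1 DEG of 12 wall genes, from scarce reads of 23.9, 3.90 and 4.09 normalized counts in *35S::AtTOR* and 0.936, 0 and 0.984 in WT (log2 fold change 2.45). It counted as measured only through *35S::AtTOR*, where it was high. Its call ended without *35S::AtTOR* replicate 1 (1.67) or WT replicate 2 (2.12), with a pseudocount of 5, and with edgeR (adjusted p = 0.184, over the alternatives tried 0.0097 to 0.228). The 11 cytosolic ribosomal protein genes, of a class that TOR activity raises, had 0 DEGs and all lay below 0, between -0.31 and -0.05. In 7 of the 11 the groups did not overlap, with *35S::AtTOR* lower (12.1% of all genes), and 2 had an unadjusted p under 0.05 with limma. *RPS6B*, an S6 protein of the small subunit, had 2764, 2817 and 3127 in *35S::AtTOR* and 3432, 3405 and 3931 in WT (-0.31, adjusted p = 0.102 from limma).

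Names of gene products gave a further view, with the words chosen after the DEGs were seen and so given as counts. The word kinase stood in the product name of 25 of the 215 higher DEGs (11.6%), 2 of the 54 lower ones (3.70%) and 5.68% of all 17330 genes. The word also catches products such as a membrane-associated kinase regulator (AT1G67050), and it misses *TOR*, a kinase named without it. Receptor-like proteins (RLP), the cell surface receptors without a kinase domain, made up 5 of the 215 (2.33%) and 0 of the 54, out of 32 measured (0.185% of all genes). They were *RLP34*, *RLP36*, *RLP37*, *RLP38* and *RLP42*, which belong to families of similar sequence whose reads the counting may have divided. *RLP38* had 256, 297 and 137 normalized counts in *35S::AtTOR* and 17.8, 104 and 8.86 in WT (log2 fold change 3.03, adjusted p = 0.0337 from limma). Without WT replicate 3, the 90 higher DEGs held 6 genes with the word kinase (6.67%) and 4 RLP genes (4.44%), and *RLP38* was no longer among them.

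Upstream sequence was compared between the higher and lower DEGs, using the 250 bases before the annotated gene start in the RefSeq annotation of TAIR10.1 (17263 genes). The W-box, searched as TTGACC or TTGACT on both strands (so that GGTCAA and AGTCAA also count), is the site of WRKY factors of defence. It was present in 93 of 215 higher DEGs (43.3%), 8 of 54 lower DEGs (14.8%) and 27.6% of all regions. Without WT replicate 3 the shares were 37.8% of 90 higher and 22.7% of 22 lower DEGs. The ABA element ABRE (ACGTGGC or ACGTGTC) was found in 3.72% of higher DEGs, 13.0% of lower DEGs and 7.70% of all regions, and the G-box (CACGTG), which can share its ACGTG with an ABRE, in 3.26%, 13.0% and 7.74%. The heat shock element GAANNTTC was present in 17.2%, 9.26% and 9.22%, and the evening element AAATATCT in 6.51%, 13.0% and 5.11%. These shares moved without WT replicate 3, where the heat shock element was in 12.2% of higher and 0% of lower DEGs, the evening element in 3.33% of higher and 4 of the 22 lower, the ABRE in 2.22% and 13.6%, and the G-box in 3.33% and 9.09%. None of these matches is evidence that a factor was bound.

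The regions below show where W-boxes (capitals) lie before AT1G15670, a higher gene that stayed a DEG with any sample left out, and before *RLP38* and *EDS1*, and where a heat shock element (capitals) lies before *HSP21*. All are written 5′ to 3′ on the strand of the gene and end 1 base before its annotated start, at chr1:5389702-5389951 (plus strand), chr3:8229620-8229869 (minus), chr3:17758148-17758397 (minus) and chr4:13819972-13820221 (minus) of TAIR10.1.
AT1G15670: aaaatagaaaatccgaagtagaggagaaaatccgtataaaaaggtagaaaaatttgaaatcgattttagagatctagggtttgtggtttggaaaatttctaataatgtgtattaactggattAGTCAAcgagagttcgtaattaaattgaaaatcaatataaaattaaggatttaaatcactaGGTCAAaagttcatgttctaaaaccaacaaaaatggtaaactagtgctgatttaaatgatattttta
RLP38: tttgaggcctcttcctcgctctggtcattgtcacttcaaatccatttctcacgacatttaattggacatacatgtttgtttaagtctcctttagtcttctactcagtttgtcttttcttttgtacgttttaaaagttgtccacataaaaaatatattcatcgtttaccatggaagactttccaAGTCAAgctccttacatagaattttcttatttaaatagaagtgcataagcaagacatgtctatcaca
EDS1: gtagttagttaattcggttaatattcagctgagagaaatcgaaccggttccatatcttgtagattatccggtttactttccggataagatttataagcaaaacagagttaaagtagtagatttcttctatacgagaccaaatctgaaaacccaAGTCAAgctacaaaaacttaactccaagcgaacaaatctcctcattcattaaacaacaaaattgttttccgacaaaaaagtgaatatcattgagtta
HSP21: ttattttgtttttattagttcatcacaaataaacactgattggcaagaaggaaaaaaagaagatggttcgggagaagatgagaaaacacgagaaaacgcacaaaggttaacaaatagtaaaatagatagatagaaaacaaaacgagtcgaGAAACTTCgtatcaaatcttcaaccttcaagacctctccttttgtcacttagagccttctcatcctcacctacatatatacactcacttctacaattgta

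In AT1G15670 2 W-boxes were found, the nearer 61 bases before the gene start. *RLP38* and *EDS1* had 1 each, 61 and 91 bases before it, all 3 genes being higher in *35S::AtTOR*. *HSP21*, lower in *35S::AtTOR*, had its heat shock element 92 bases before the start. The region of *RLP38*, a higher gene, also holds a heat shock element, left in lower case above. Of the 22 higher genes named here for their rank or list, 13 had a W-box in the window (43.3% of the 215 higher DEGs and 27.6% of all regions had one). *HAT1*, *PAD4* and *NIMIN1* had none. The 22 are part of the 215 and include *TOR*, the gene carried by the construct.

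To ask whether a difference belonged to drought, the difference between *35S::AtTOR* and WT in droughted leaves was set against that in well-watered leaves in the same model. Taken with its sign, the drought difference lay above the well-watered one for 344 genes (1.98% of 17330) and below it for 253 (1.46%), at the same thresholds. A negative call is therefore not by itself a smaller gap between the genotypes, nor a positive call a larger one. Scaling to equal sample totals moved the median of all genes to -0.188 and the counts to 232 and 490, so that 32.1% of the calls were positive in place of 57.6%. The counts were 150 and 111 without *35S::AtTOR* drought replicate 2, 152 and 123 without *35S::AtTOR* well-watered replicate 2, 172 and 117 without WT well-watered replicate 2, and 211 and 184 without WT drought replicate 3. The drought DEGs were chosen on the drought difference, which this contrast contains, so a raised share among them is partly built in. Of the 215 DEGs higher under drought, 83 had a drought difference that exceeded the well-watered one by this test, and 26 of the 54 lower DEGs had one that fell below it. *HAT1* exceeded it by 3.26, *OFP16* by 3.54 and *DIN10* by 2.80 on the log2 scale (adjusted p = 0.0301, 0.00682 and 0.0311 from limma). *DIN10* had a log2 fold change of -3.31 after re-watering, the opposite of its direction under drought. *PYL4* exceeded it by 1.25 and was lower than in WT after re-watering, where its mean was 229.5 in *35S::AtTOR* and 1088 in WT. *HSP70* was lower than in WT under drought and higher by 1.27 when well-watered, a difference between treatments of -2.61.

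The same contrast called members of lists that held no DEG under drought itself. For photosystem genes 16 of 25 were positive (12 with equal totals, 12 without WT drought replicate 3), and for light-harvesting genes 12 of 19 (9 and 7). In well-watered leaves these lists lay below WT, with medians of -0.64 and -0.97, and under drought above it, at 0.43. Dehydration genes ran the other way, with 6 of 21 negative and 1 positive (8 and 1 with equal totals, 3 and 0 without WT drought replicate 3). In well-watered leaves 7 of these 21 were DEGs higher than WT and 0 lower (median 0.39), while the median under drought was 0.01. *RD29B*, an ABA-responsive marker, was above WT by 3.19 when well-watered and below it by 1.02 under drought, a difference of -4.21 on the log2 scale. *RAB18* differed by -3.34 and *DI21* by -3.89.

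**Figure D4:**
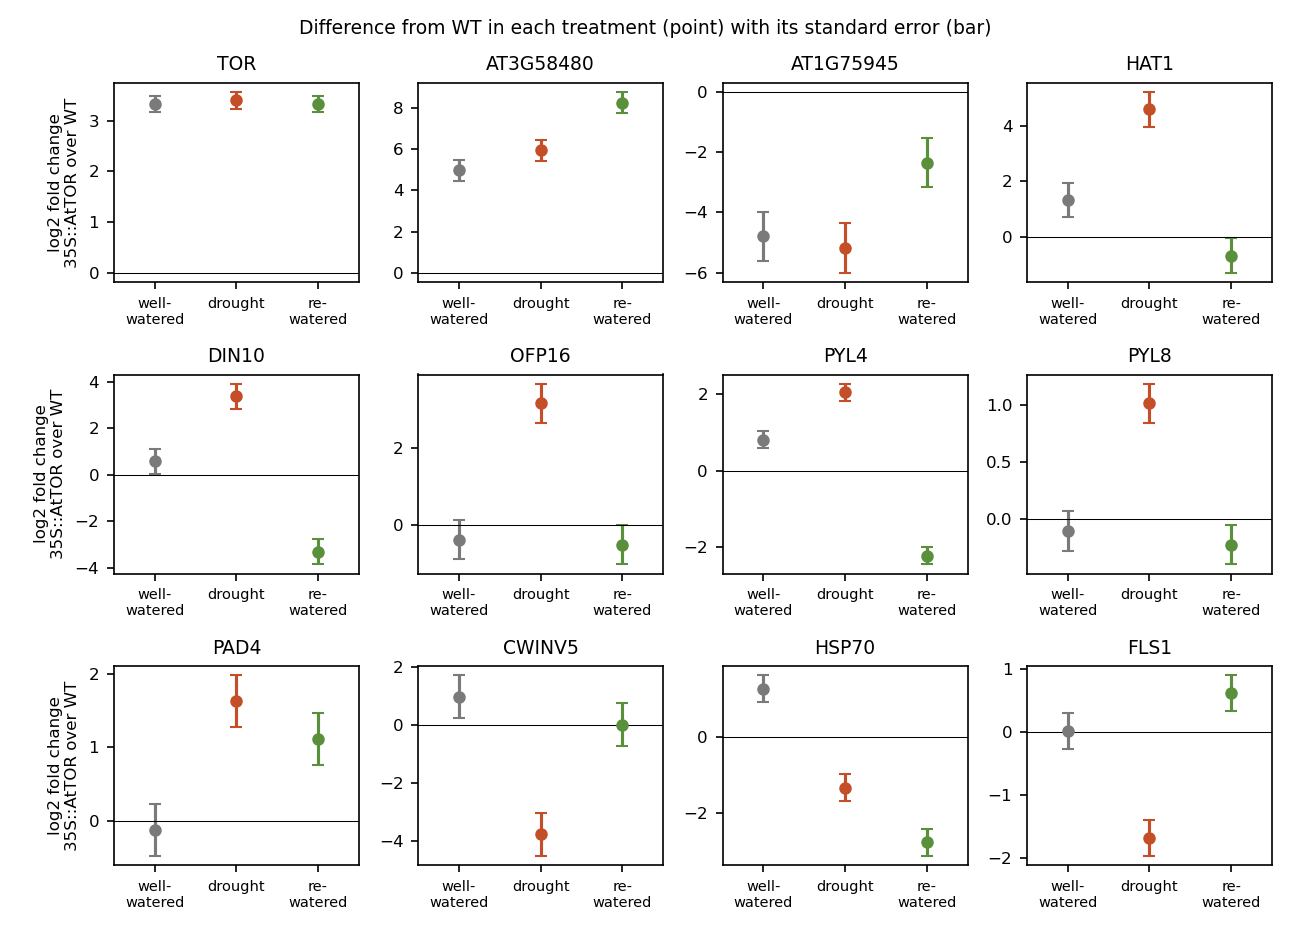
Log2 fold change of *35S::AtTOR* over WT (points) with its standard error from limma (bars) in well-watered, drought and re-watered leaves for 12 genes, each on its own y axis. *TOR* keeps the same excess of 3.33 to 3.40 throughout, whereas *DIN10* and *PYL4* are above WT under drought and below it after re-watering, and *CWINV5* is at -3.77 under drought, against 0.97 in well-watered leaves.

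Most drought DEGs were not DEGs in the other treatments, whose samples are separate. In well-watered leaves 1.3% of the 17330 genes were higher and 1.22% lower, and after re-watering 4.77% and 4.29%. The drought difference exceeded the re-watered one for 876 genes (5.05%) and lay below it for 760 (4.39%). Of the 215 higher ones 12 were also higher in well-watered leaves (5.58% of the drought list, 5.33% of the 225 well-watered DEGs) and 8 were lower there. After re-watering 36 were higher (16.7% of the drought list, 4.35% of 827) and 37 lower. Of the 54 lower ones, 3 were also lower when well-watered and 8 after re-watering. Neither other treatment called 128 of the higher and 33 of the lower DEGs. The re-watered group of *35S::AtTOR* includes a library of 2739872 reads, the shallowest of the series.

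The guard cell construct was set beside these values under drought. Against *GC::AtTOR*, which had 1315, 1228 and 1304 normalized counts of *TOR*, *35S::AtTOR* was higher in 802 genes (4.63%) and lower in 237 (1.37%). Between *GC::AtTOR* and WT, 2 genes were higher (0.0115%) and 1 lower (0.00577%). *HAT1* had 29.3, 13.1 and 4.87 in *GC::AtTOR*, *DIN10* 23.5, 11.4 and 22.4, and *PYL4* 7.04, 8.99 and 6.82, all below the *35S::AtTOR* samples. *FLS1* had 734, 882 and 910 in *GC::AtTOR*, above every *35S::AtTOR* sample. For these 4 genes the *35S::AtTOR* samples therefore lay apart from both other genotypes, with log2 fold changes against *GC::AtTOR* of 4.28, 3.68, 1.78 and -2.26 (adjusted p = 0.000249, 0.000251, 9.67e-05 and 9.67e-05 from limma). The 2 comparisons share the *35S::AtTOR* samples and are not independent.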

How the data were processed

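The authors deposited 1 table of normalized counts (a signal without a length correction) for 34218 genes and 27 samples, each gene count divided by a DESeq2 size factor of its sample. Leaf RNA was sequenced as paired ends, the reads were trimmed with Trimmomatic and aligned to TAIR10 with STAR, and counts were estimated with Salmon. Versions are not given in the sources used here. Every column belonged to a sample of the series. Low values were whole multiples of 1 step in 26 of 27 samples (tolerance 0.1 read, 100.0% of values), which gave the read totals. In the first well-watered *35S::AtTOR* sample this step lay too near 1 to be read, and the count tests omit it.

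The study tested with DESeq2. Because the deposited values are normalized, the test here was limma 3.58.1 (R 4.3.3) on log2(normalized count + 1), with 1 model of 9 groups and 27 samples (18 residual degrees of freedom), a trended prior and Benjamini-Hochberg adjustment over the 18785 genes averaging 10 or more in any group. A fold change on this scale understates low genes. Count tests of the recovered reads (DESeq2 1.42.0, edgeR 4.0.16), other scalings, pseudocounts of 0.5 and 5, other filters, the replicate block, fewer samples and leaving out each sample were alternatives. The fit was tested on simulated counts in which each gene had the same dispersion in every group. That run cannot show how a spread that differs between groups affects the calls. Values for 3 samples against 3 cannot reach an exact p below 0.1, so single values carry no such test.

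Named genes were *TOR*, members of 43 gene lists (12 of 546 entries were dropped because the reference did not pair their symbol and locus), genes named in the study, and the top 15 DEGs by log2 fold change in each direction that averaged 100 or more where higher and whose samples did not overlap. The comparison and the lists were chosen with earlier results of these data known. A further upstream sequence is not reported here. Gene names matched RefSeq TAIR10.1 for 32548 IDs. Python 3.11.15, pandas 2.3.3 and Matplotlib 3.10.9 were used for tables and figures.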

Additional observations from a re-analysis of the deposited data

Results flagged for a closer look

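The difference between *35S::AtTOR* and WT under drought itself differed from that in well-watered leaves, by limma's interaction term, for 344 genes in the positive and 253 in the negative direction. That term contains the drought difference on which the DEGs were chosen, so its sign among them is partly built in. Among the named drought DEGs this term was positive for *HAT1* (3.26 on the log2 scale), AT3G06070 (3.25), AT5G62360 (4.52), *DIN10* (2.80), *OFP16* (3.54), AT3G22240 (4.39), *EXPA8* (5.46), *PAD4* (1.75), *PYL4* (1.25) and *PYL8* (1.13). It was negative for *CWINV5* (-4.74), *GASA3* (-4.03), *AAE12* (-3.47), *CCR2* AT1G80820 (-3.07), *ATHSP22.0* (-2.98), *HSP70* (-2.61), AT5G05960 (-2.23), AT5G45630 (-1.75), *FLS1* (-1.70) and *ERD5* (-1.32). *EXPA8* was the extreme case because its well-watered means were 36.9 in *35S::AtTOR* and 310.4 in WT. WT drought replicate 3 was the lowest WT sample in 148 of the 215 higher DEGs (68.8%, against 38.5% of all 17330 genes) and the highest in 34 of the 54 lower ones (63.0%, against 39.1%), and the part of this sample in the calls was not tested beyond leaving it out.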

How the results depend on the processing

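Counts of DEGs depended on how many samples set the spread. For drought they were 215 higher and 54 lower, against 1 and 1 with the 6 samples alone and, in a fit chosen after seeing the data, 2 and 0 with the 9 drought samples alone (limma, 2328 genes at an unadjusted p under 0.05, while edgeR and DESeq2 on the recovered reads of 26 samples gave 53 and 81 lower). An adjusted p under 0.01 gave 76 and 14, and no fold threshold 414 and 112. Leaving out 1 sample gave 51 to 295 higher and 7 to 125 lower. edgeR gave 183 higher and DESeq2 276. For the difference between drought and well-watered leaves, the 344 and 253 became 97 and 65 at an adjusted p under 0.01, 681 and 520 with no fold threshold, and 232 and 490 with equal sample totals. Leaving out 1 sample gave 150 to 419 and 111 to 311. DESeq2 gave 515 and 347.

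Replicate numbers did not pair the samples: deviations of same-numbered drought samples correlated at -0.128, 0.275 and 0.319. A replicate block gave 234 and 61 under drought and 341 and 267 for the difference, with 0 of the 40 named calls lost. A block by library number gave 177 and 42 under drought (169 and 37 of the original calls kept), with AT3G22240, *EDS1* and *HSP70* lost, and 346 and 244 for the difference. *35S::AtTOR* sample 1 did not correlate best with its own number. No named gene reversed in any of the 21 alternatives. Fits that keep the same group means, such as that of the 6 samples alone, could not reverse one. Of the 40 named calls, 39 ended with the 6 samples alone, 8 with edgeR and 6 with DESeq2. The 3 samples a group and libraries of 11516845 to 14888716 reads limit what could be detected.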
